A study of Mus musculus with 8 samples.

Results

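The transcription factor NRF2 (gene Nfe2l2), its inhibitor Keap1 and 8 of their classical target genes were followed through the mRNA and ribosome footprints of livers from high-fat-fed mice that did or did not receive betaine. The 10 genes were chosen by name from textbook knowledge of the pathway, with earlier results of these data known. All 10 were found by symbol among the 24079 symbols present in both assays. The HF libraries came from C57BL/6 mice that entered at 8 weeks of age and were fed a high-fat diet with 45% of energy as fat. The HB libraries came from mice on the same diet that also received 2% (w/v) betaine, a methyl donor, dissolved in their water. The labels give 25 weeks on the diet. The study's methods give a shorter diet and place liver collection at the end of week 25, so the time on the diet differs between these sources. No lean control group was analysed here. The mice were male. Each assay had 2 libraries per group, named HF1, HF2, HB1 and HB2. The labels speak of pooled RNA preparations while the study's methods name single mice, so replicates are counted as libraries, and p-values measure only the spread between these libraries.

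NRF2 is a leucine zipper transcription factor that is made continuously and destroyed continuously. KEAP1, an adaptor of the CUL3 ubiquitin ligase, carries reactive cysteines, and while they are unmodified it hands NRF2 to the proteasome. When oxidants or electrophiles modify these cysteines, NRF2 escapes, enters the nucleus, pairs with a small MAF protein and binds antioxidant response elements in front of genes for glutathione synthesis, thioredoxin recycling, quinone reduction and heme breakdown. Much of this control acts on NRF2 protein, which neither assay measured. In liver the pathway is best known for protecting hepatocytes against drug metabolites and oxidised lipids.

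The values are RPKM (reads per kilobase of gene, scaled to the reads of the library), so levels of different genes can be compared per length. Library totals and whole reads were recovered from the steps between low RPKM values. The mRNA libraries held 11661207 to 22543471 reads and the footprint libraries only 141890 (HB2) to 1056546 (HF2). The members rested on 51 to 7695 reads each in mRNA libraries but on 0 to 320 reads in footprint libraries, where 5 of the 10 had at most 3 reads in at least 1 library. On a gene of 1 kb, 3 reads gave 21.1 RPKM in the HB2 footprint library and 2.84 RPKM in HF2. Reads on protein-coding genes made up 81.9% of the reads summed over genes in the HB2 footprint library and 93.7% in HF1. Hepatocyte markers were abundant in every library, with a sum over the 9 markers found of 48702 to 57279 RPKM in mRNA and 38507 to 46049 RPKM in footprints. In bulk liver, fewer cells of a type and less RNA per cell cannot be told apart.

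HB was compared with HF by limma on log2(RPKM + 1) across all genes with a mean of at least 1 RPKM, and a gene is said to have risen or fallen when its Benjamini-Hochberg adjusted p over all tested genes was under 0.05. All 10 members passed the filter in both assays. Over all 10687 genes tested for mRNA the median log2 fold change was -0.19, so the HB libraries sat slightly lower as a whole. Over the 11190 genes tested for footprints this median was -0.43.

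At the mRNA level, 1 member rose (Nqo1) and 2 fell (Nfe2l2 and Gclc) in HB. Among all tested genes 7.92% rose and 19.1% fell, together 27%, so these counts out of 10 were close to the background. With the thresholds of the study for mRNA, a change beyond 1 on the log2 scale at an unadjusted p below 0.001, Nfe2l2 alone was called, against 2.3% of all tested genes higher, 6.56% lower and 8.86% in either direction. The median log2 fold change of the 10 members was 0.035. The members thus did not move as a block. The transcript of the regulator and that of the catalytic enzyme of glutathione synthesis were lower, and that of the quinone reductase was higher. Both HB libraries were above both HF libraries for 3 members, against 24.8% of all tested genes, and below both for 3 members, against 43.3%.

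**Figure D1:**
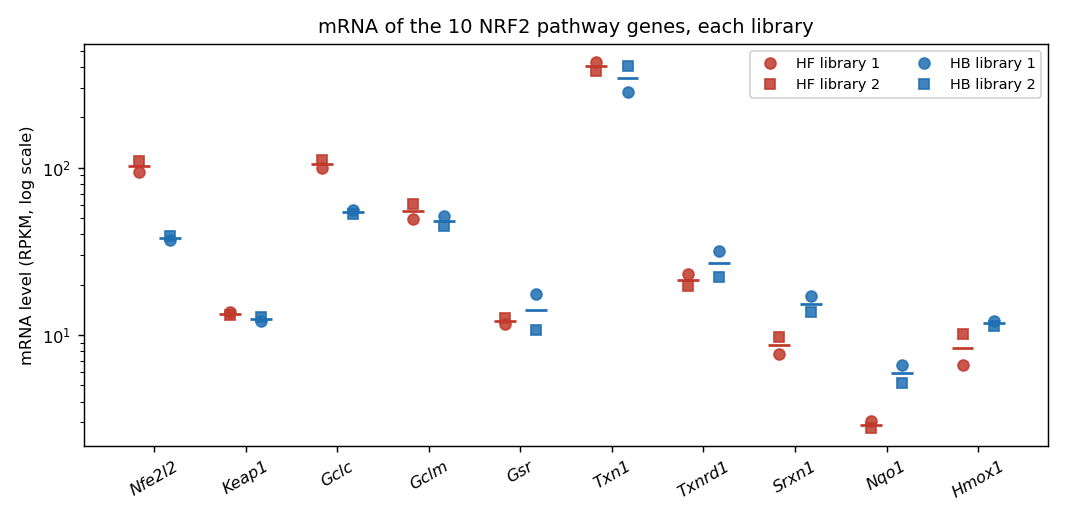
mRNA level in RPKM (log axis) of the 10 genes in each of the 4 RNA-seq libraries, with HF in red, HB in blue, circles for library 1, squares for library 2 and a bar at each group mean. Nfe2l2 falls from a mean of 102.0 to 38.1 RPKM and Gclc from 104.9 to 54.4, while Nqo1 goes from 2.91 to 5.90.

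Nfe2l2 (chromosome 2, 75675513 to 75704641, minus strand, GRCm38) encodes NRF2 itself. The mRNA stood at 93.9 and 110.0 RPKM in HF1 and HF2 against 37.2 and 39.0 RPKM in HB1 and HB2, from 1760 to 3248 reads a library. The HB libraries were nearly equal and lay far below both HF libraries. The group means, 102.0 ± 11.4 and 38.1 ± 1.26 RPKM (SD, n = 2 libraries each), made it 2.68-fold lower in HB. On the log2 scale the difference was -1.39 with a standard error of 0.25 (adjusted p = 0.00666, limma). It was the member with the largest mRNA change, and its adjusted p stayed between 0.00233 and 0.0274 with each library left out in turn.

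Keap1 (chromosome 9, 21229730 to 21239361, minus strand) encodes the inhibitor that holds NRF2 in the cytoplasm. Library values were 13.6 and 13.1 RPKM in HF and 12.1 and 12.9 RPKM in HB. Both HB libraries were slightly lower, and the log2 fold change of -0.10 had a 95% interval from -0.64 to 0.44 (adjusted p = 0.792, limma). The ratio of Nfe2l2 to Keap1 mRNA, per length, was 6.89 and 8.37 in HF and 3.08 and 3.03 in HB. In footprints, with few Keap1 reads, the same ratio was 1.94 and 2.92 in HF and 1.79 and 5.83 in HB, so the groups overlapped.

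The promoter windows of RefSeq (GRCm38.p6), which run from 250 bases before to 50 bases after the start site, were searched for the core of the antioxidant response element, TGACNNNGC, on both strands. Windows were given for 7 members (9 windows, since Txnrd1 has several starts), and 4 of the 7 held the core: Nfe2l2, Gclm, Srxn1 and 1 of the Txnrd1 starts. Of all 32851 windows of this length 12.4% held it. The core can overlap the AP-1 site TGACTCA, and both together were found in 0.454% of all windows. The matches are shown with 10 bases on each side, in the direction of the gene and with the matched core in capitals, because they show how the middle bases differ between members.

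Nfe2l2: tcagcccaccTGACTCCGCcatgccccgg
Gclm: gctcccgggcGCACCGTCAactctcacga
Txnrd1: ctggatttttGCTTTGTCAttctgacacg
Srxn1: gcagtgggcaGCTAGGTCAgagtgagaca

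Counted from the start site, the match begins at -240 in Nfe2l2, -134 in Gclm, -92 in Txnrd1 (window chr10:82858956-82859255) and 28 in Srxn1. In Gclm, Txnrd1 and Srxn1 it lies on the opposite strand. The Srxn1 window also holds the AP-1 site, outside the match. The 250 bases in front of the start are shown whole for the members that changed in opposite directions and have a window, Nfe2l2 (chr2:75704664-75704913, minus strand) and Nqo1 (chr8:107403206-107403455, minus strand), with the core in capitals where it occurs.

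Nfe2l2: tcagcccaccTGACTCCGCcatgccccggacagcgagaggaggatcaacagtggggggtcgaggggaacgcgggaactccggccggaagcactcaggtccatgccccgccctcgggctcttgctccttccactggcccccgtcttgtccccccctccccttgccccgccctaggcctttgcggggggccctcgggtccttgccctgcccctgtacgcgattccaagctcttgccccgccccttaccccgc
Nqo1: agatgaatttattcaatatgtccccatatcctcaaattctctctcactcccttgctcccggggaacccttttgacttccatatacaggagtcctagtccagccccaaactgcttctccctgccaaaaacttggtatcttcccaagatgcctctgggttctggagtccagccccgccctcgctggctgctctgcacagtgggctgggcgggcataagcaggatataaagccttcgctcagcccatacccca

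The Nfe2l2 sequence, from the member that fell, holds the core at its far end. The Nqo1 sequence, from the member that rose, has no such letters in this window. A match is a description of the letters only.

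The glutathione genes differed among themselves. Gclc (chromosome 9, 77754535 to 77794485, plus strand) encodes the catalytic subunit of glutamate-cysteine ligase, the first and rate-limiting enzyme of glutathione synthesis. Its mRNA level was 98.99 and 110.9 RPKM in HF against 55.7 and 53.2 RPKM in HB. From 3294 to 4494 reads a library, both HB libraries lay at about the same level, and their mean was 1.93-fold under the HF mean. The log2 difference was -0.93 with a standard error of 0.25 (adjusted p = 0.0232, limma). The call was lost without HF1 (adjusted p = 0.118) or HF2 (adjusted p = 0.173) and with all libraries set to a common median (log2 fold change -0.66, adjusted p = 0.0898).

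Gclm (chromosome 3, 122245557 to 122270732, plus strand) encodes the modifier subunit, which raises the affinity of the ligase for glutamate and eases its feedback inhibition. The mRNA level was 49.6 and 60.7 RPKM in HF and 51.4 and 45.0 RPKM in HB, so the groups overlapped. The log2 fold change of -0.19 (95% interval -0.76 to 0.38, adjusted p = 0.608, limma) equalled the median of all tested genes. The ratio of Gclc to Gclm mRNA, per length, was 1.99 and 1.83 in HF and 1.08 and 1.18 in HB. In mRNA the ratio was nearer to 1 in both HB libraries. In footprints it was 1.19 and 1.06 in HF and 1.08 and 2.45 in HB, so the groups overlapped and HB2 was the high library. Gsr (chromosome 8, 33652523 to 33698163, plus strand), the reductase that returns oxidised glutathione to its reduced form with NADPH, had 11.7 and 12.6 RPKM in HF and 17.5 and 10.7 RPKM in HB. HB1 was above and HB2 below both HF libraries (log2 fold change 0.17, adjusted p = 0.688, limma).

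The thioredoxin genes included the most abundant member. Txn1 (chromosome 4, 57943373 to 57956411, minus strand) encodes thioredoxin, the small protein that reduces disulfides with a pair of active-site cysteines. The mRNA stood at 426.8 and 378.9 RPKM in HF and 281.6 and 404.9 RPKM in HB. The groups overlapped because HB2 lay between the HF libraries (log2 fold change -0.25, adjusted p = 0.544, limma). Txnrd1 (chromosome 10, 82833951 to 82897712, plus strand), the selenoprotein that recharges thioredoxin, had 23.0 and 19.5 RPKM in HF and 31.97 and 22.2 RPKM in HB. Here HB2 fell between the HF libraries and HB1 above them (log2 fold change 0.31, adjusted p = 0.408, limma).

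Srxn1 (chromosome 2, 152105516 to 152111376, plus strand) encodes sulfiredoxin, which repairs overoxidised peroxiredoxins. Library values were 7.75 and 9.71 RPKM in HF and 17.02 and 13.7 RPKM in HB, with both HB libraries above both HF libraries. The log2 fold change of 0.75 (standard error 0.26) had an adjusted p = 0.0568 (limma) and narrowly missed the threshold. It passed without HB2 (adjusted p = 0.0239), with libraries set to a common median (log2 fold change 1.02, adjusted p = 0.0203), with crossed replicate numbers as a block (adjusted p = 0.0339) and among genes with a mean of at least 5 RPKM (adjusted p = 0.0474), where Nqo1 is too low to be tested. The adjusted p of Srxn1 ranged from 0.0203 to 0.404 over all alternatives.

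Nqo1 (chromosome 8, 107388225 to 107403206, minus strand) encodes the quinone reductase most used as a readout of NRF2 activity. Its mRNA level was the lowest of the members, 3.04 and 2.78 RPKM in HF against 6.63 and 5.17 RPKM in HB. These values rested on 55 and 51 reads in HF and on 232 and 145 reads in HB, and every HB library was above every HF library. The group means of 2.91 ± 0.184 and 5.90 ± 1.04 RPKM (SD, n = 2 libraries each) differed 2.03-fold. On the log2(RPKM + 1) scale, which understates the change of so low a gene, it was higher by 0.81 with a standard error of 0.25 (adjusted p = 0.0389, limma). The call was lost without HF1 (adjusted p = 0.179), HF2 (adjusted p = 0.207) or HB1 (adjusted p = 0.0986). It was also lost with a common sum of RPKM (adjusted p = 0.0690) and with voom on recovered reads (log2 fold change 1.01, adjusted p = 0.0681).

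Hmox1 (chromosome 8, 75093621 to 75100589, plus strand) encodes heme oxygenase 1, which opens the heme ring to biliverdin, iron and carbon monoxide. Its mRNA level was 6.58 and 10.2 RPKM in HF and 12.2 and 11.3 RPKM in HB. Both HB libraries were higher, but the spread within HF was as wide as the gap to HB, and the log2 fold change of 0.47 had an adjusted p = 0.226 (limma). That change was 0.19 without HF1 and 0.75 without HF2. Heme oxygenase 1 is abundant in macrophages that clear red blood cells. Of the 12 Kupffer cell and macrophage markers, 5 rose (Lyz2, Cd5l, C1qc, Marco and C1qb) and 0 fell at the mRNA level, against 7.92% and 19.1% of all tested genes, with a summed level of 192.2 and 241.7 RPKM in HF and 325.0 and 317.6 RPKM in HB. Of the 5 red blood cell markers, 3 rose (Hbb-bs, Hbb-bt and Alas2) against the same 7.92%, with a summed level of 523.1 to 674.9 RPKM in HF and 738.3 and 2249 RPKM in HB. In footprints none of these markers was called, with 2 of 12 macrophage values positive (median log2 fold change -0.56 against -0.43 for all tested genes) and 1 of 12 positive in TE (median -1.32 against -0.35). None of these 17 markers was at 0 in all mRNA libraries, and their part in the Hmox1 value was not tested.

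Within HF, the mRNA levels of the members spanned 138.5-fold, from Txn1 through Gclc, Nfe2l2, Gclm, Txnrd1, Keap1, Gsr, Srxn1 and Hmox1 down to Nqo1. Gclc and Nfe2l2 did not differ beyond the spread of their libraries, and neither did Keap1 and Gsr in HB or Srxn1 and Hmox1 in HF. Txn1 stood at the 98.0th percentile of all tested genes and Nqo1 at the 21.5th.

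Footprints count the mRNA stretches that translating ribosomes cover. No member passed the adjusted threshold at this level, and neither did any of the 11190 genes tested (0% called in either direction, limma), while 1122 genes had an unadjusted p under 0.05. Among the members only Gclm did, on the lower side, where 8.31% of all tested genes lay, with 1.72% on the higher side. It was also the 1 member whose HB libraries were both beyond the HF libraries, a position taken on the lower side by 33.2% of all tested genes and on the higher side by 9.07%. The median footprint log2 fold change of the members was -0.67 against -0.43 for all tested genes, with 3 members positive and 7 negative.

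**Figure D2:**
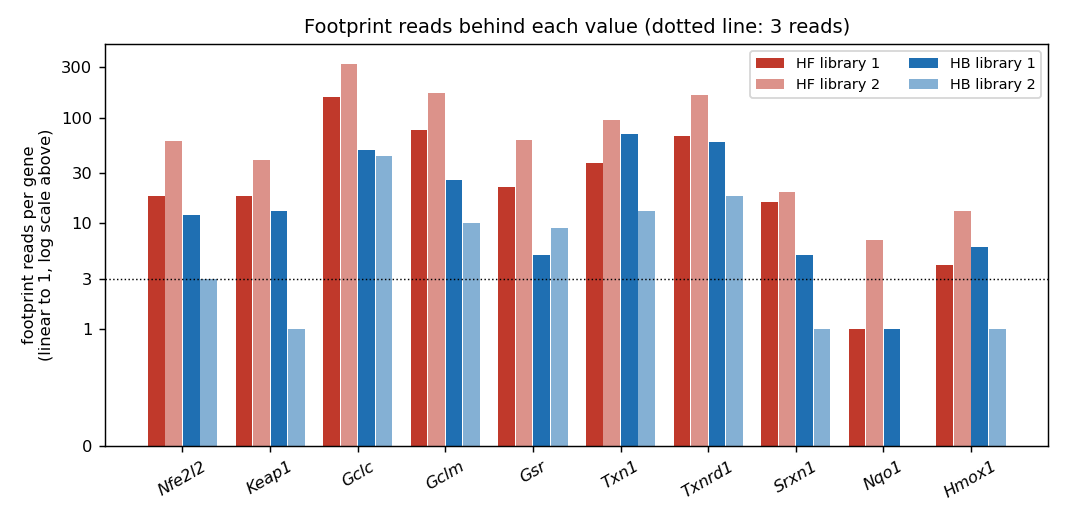
Recovered footprint reads (axis linear to 1 and logarithmic above) of the 10 genes in each Ribo-seq library, with HF in red, HB in blue, the darker bar for library 1 and a dotted line at 3 reads. Nqo1 rests on 0 to 7 reads a library, and Keap1, Srxn1 and Hmox1 each have 1 read in HB2.

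Gclm had 94.5 and 78.6 RPKM of footprints in HF and 48.8 and 34.0 RPKM in HB, from 76, 172, 26 and 10 reads. Both HB libraries were below both HF libraries, 2.09-fold in the group means of 86.6 ± 11.3 and 41.4 ± 10.5 RPKM (SD, n = 2 libraries each). The log2 difference was -1.06 with a standard error of 0.33 (adjusted p = 0.493, limma). With the thresholds of the study for footprints, a change beyond 1 on the log2 scale at an unadjusted p below 0.05, Gclm was the 1 member called, against 7.86% of all tested genes lower, 1.58% higher and 9.44% in either direction.

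Gclc, the member with the most footprints, had 112.9 and 83.4 RPKM in HF and 52.5 and 83.5 RPKM in HB. HB2 reached the level of HF2, so the groups overlapped, and the log2 fold change of -0.54 had a 95% interval from -1.49 to 0.40. Without HB1 the log2 fold change was -0.22. The change of Gclc in translation efficiency, 0.39 on the log2 scale, had a 95% interval from -0.98 to 1.76.

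Nfe2l2 footprints were 28.6 and 35.0 RPKM in HF and 28.8 and 13.0 RPKM in HB, from 18, 60, 12 and 3 reads. HB1 equalled HF1 and only HB2, with its 3 reads, was low. The log2 fold change was -0.68 with a 95% interval from -1.94 to 0.59, which includes both no change and the mRNA value of -1.39. Without HB1 the Nfe2l2 footprint change was -1.22, and without HB2 it was -0.13. Keap1 footprints were 14.7 and 12.01 RPKM in HF and 16.0 and 2.24 RPKM in HB, the last value from a single read. Without HB2 the Keap1 log2 fold change turned from -0.95 to 0.25.

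The thioredoxin genes differed between the HB libraries. Txn1 footprints were 90.7 and 86.5 RPKM in HF and 259.1 and 87.2 RPKM in HB. HB1 stood far above the other libraries, which were nearly equal, and without HB1 the log2 fold change went from 0.76 to -0.023. Txnrd1 had 50.5 and 46.0 RPKM in HF and 67.2 and 37.1 RPKM in HB (log2 fold change 0.05, 95% interval -0.97 to 1.07). Gsr had 21.2 and 22.0 RPKM in HF and 7.28 and 23.7 RPKM in HB, from 22, 62, 5 and 9 reads, with HB1 low and HB2 at the HF level.

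Srxn1, Nqo1 and Hmox1 had few footprints. Srxn1 had 14.7 and 6.73 RPKM in HF and 6.92 and 2.51 RPKM in HB, from 16, 20, 5 and 1 reads. Nqo1 had 1 and 7 reads in HF and 1 and 0 reads in HB. The ratio of pooled Nqo1 reads, scaled to the library totals, was 0.453 in HB against HF, with an exact 95% interval from 0.0102 to 3.38 that covers counting error only. A change of Nqo1 footprints of the size seen in its mRNA was therefore not detectable at this depth. Hmox1 had 6.54 and 7.81 RPKM in HF and 14.8 and 4.47 RPKM in HB, from 4, 13, 6 and 1 reads.

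**Figure D3:**
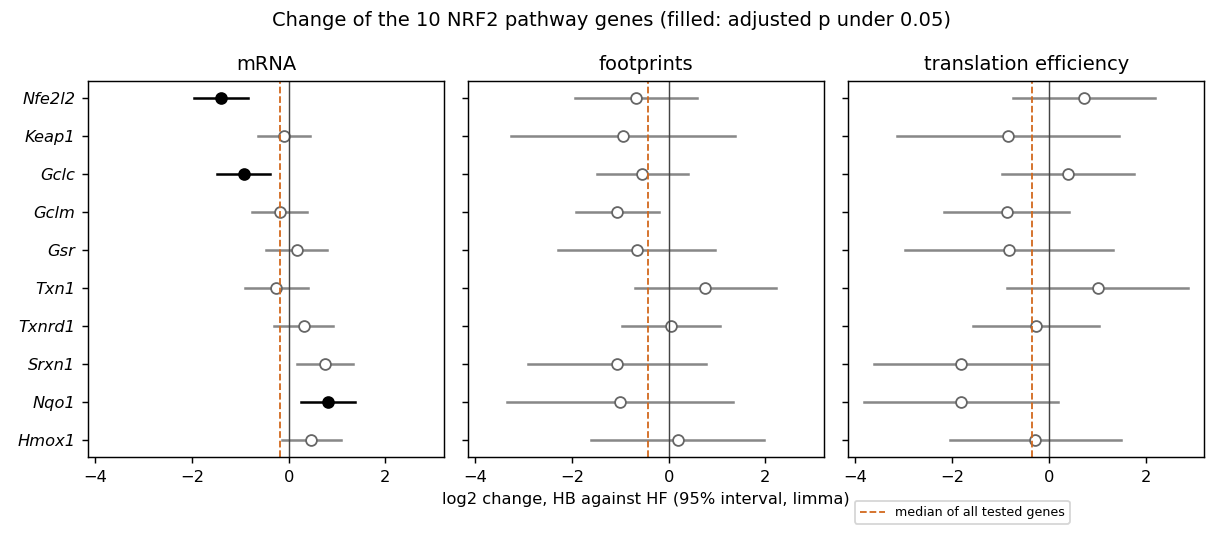
Log2 change of HB against HF with its 95% interval (limma) for each gene in mRNA, footprints and translation efficiency, with filled points where the adjusted p is under 0.05 and a dashed line at the median of all tested genes. The 3 filled points are Nfe2l2 (-1.39), Gclc (-0.93) and Nqo1 (0.81) in mRNA, and the intervals are wider in the other panels.

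Translation efficiency (TE), the footprint RPKM divided by the mRNA RPKM of the library with the same group and number, was compared on the log2 scale with 1 added to each value. A shared number is not stated to mark the same mouse. Deviations of same-numbered mRNA and footprint libraries around the group means had r = -0.0024 in HF and -0.077 in HB. Neither a member nor any of the 9455 genes tested passed the adjusted threshold (0% called in either direction, limma), and 1127 genes had an unadjusted p under 0.05. Among the members only Srxn1 did, on the lower side, where 8.7% of all tested genes lay, with 3.22% on the higher side. Its log2 change was -1.81 with a standard error of 0.72 (adjusted p = 0.417, limma). With the numbers crossed between assays, the unadjusted p of Srxn1 was 0.0515 (limma). Its TE was 1.89 and 0.693 in HF and 0.406 and 0.183 in HB. Both HB libraries were lower, although HB2 rested on 1 footprint read. The log2 change of Srxn1 was -1.16 without HF1 and -2.47 without HF2. Nqo1 had the same log2 change of -1.81 (adjusted p = 0.447, limma), resting on the 9 footprint reads named above, and it ranged from -2.56 (without HB1) to -1.06 (without HB2) with 1 library left out. Both values depend on the number added: with 0.1 in place of 1 the log2 change was -3.43 for Nqo1 and -2.04 for Srxn1 in TE, and Nqo1 footprints, at -0.9997 with 1 added, went to -2.44. With the thresholds of the study for TE, a change beyond 2 on the log2 scale at an unadjusted p below 0.05, no member was called, against 1.63% of all tested genes higher, 4.75% lower and 6.38% in either direction.

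The 95% intervals of Nqo1 (-3.81 to 0.19) and of all other members apart from Srxn1 spanned 0. Gclm had a TE of 1.91 and 1.29 in HF and 0.950 and 0.756 in HB, with both HB libraries lower (log2 change -0.87, 95% interval -2.17 to 0.43). Keap1 (-0.85), Gsr (-0.83), Hmox1 (-0.28) and Txnrd1 (-0.26) also had negative log2 changes, none of them called. Nfe2l2 had a TE of 0.305 and 0.318 in HF and 0.774 and 0.335 in HB (log2 change 0.72, 95% interval -0.75 to 2.19). Txn1 had 0.213 and 0.228 in HF and 0.920 and 0.215 in HB (log2 change 1.01, 95% interval -0.87 to 2.88). In both genes HB1 was high and HB2 like HF. In HF these were the members with the lowest TE, at the 12.6th and 7.77th percentile of all tested genes, while Txnrd1, with 2.19 and 2.35, stood at the 77.6th. Against medians over all genes of 1.07 and 1.02 in HF1 and HF2, thioredoxin mRNA thus carried few footprints for its abundance and thioredoxin reductase mRNA many. The order of TE between genes depends on the lengths used. For Nfe2l2 the recovered length was 2497 bases in the mRNA tables and 1621 in the footprint tables, for Keap1 it was 4470 and 3151, for Gclc 3427 and 3631, for Txnrd1 3505 and 3417, and for the other members the lengths were equal. Within a gene the length is the same in all libraries of an assay, but through the added 1 it still bears on how far the change of a low gene is shrunk.

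Genes around the members were taken from lists written by hand, also with earlier results of these data known. Of 18 genes for the turnover, partners and competitors of NRF2, 1 rose and 2 fell at the mRNA level, against 7.92% and 19.1% of all tested genes, so the counts were not above the background. Their median log2 fold change was -0.14 against -0.19 for all tested genes. Sqstm1, which encodes the autophagy receptor p62 that sequesters KEAP1 and is itself an NRF2 target, rose from 102.1 ± 10.3 to 179.6 ± 2.63 RPKM (SD, n = 2 libraries each, log2 fold change 0.81, adjusted p = 0.0404, limma). Mafg, a small MAF protein that pairs with NRF2 on DNA, fell from 47.3 ± 5.76 to 25.7 ± 1.88 RPKM (log2 fold change -0.85). Bach1, the heme-sensitive repressor that competes with NRF2 for the same elements, fell from 10.2 ± 0.218 to 5.43 ± 0.981 RPKM (log2 fold change -0.81). The 2 falls were not called with libraries set to a common median, and none of the 3 calls held without HF1 or without HF2.

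Of 13 tested genes for the synthesis, transport and use of glutathione, 2 rose and 0 fell, against 7.92% and 19.1% of all tested genes, and 11 of the 13 values were positive. Gpx1, the abundant selenium-dependent glutathione peroxidase, rose from 1025 ± 252.4 to 2310 ± 433.6 RPKM (SD, n = 2 libraries each, log2 fold change 1.18, adjusted p = 0.0258, limma). Glo1, which removes methylglyoxal with glutathione, had a log2 fold change of 1.01.

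In the thioredoxin system beyond the members, 5 of 17 genes rose and 2 fell, against 7.92% and 19.1% of all tested genes, and the median log2 fold change was 0.49. Fewer genes of this list rose without HF1 or without HF2, as among all tested genes. Prdx1, a peroxiredoxin that thioredoxin keeps reduced and a known NRF2 target, rose from 155.7 ± 17.7 to 471.5 ± 102.3 RPKM (SD, n = 2 libraries each, log2 fold change 1.58, adjusted p = 0.00666, limma). The methionine sulfoxide reductases Msra (1.20) and Msrb1 (1.20) and the mitochondrial peroxiredoxin Prdx3 (0.89) had smaller log2 fold changes. Txnip, which binds and inhibits thioredoxin, fell from 49.6 ± 6.36 to 20.4 ± 1.22 RPKM (log2 fold change -1.23). Secisbp2, the factor that lets ribosomes insert selenocysteine into proteins such as TXNRD1, fell from 10.9 ± 0.742 to 5.16 ± 0.321 RPKM (log2 fold change -0.95).

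NADPH pays for the work of GSR and TXNRD1, and all 10 tested genes of NADPH supply had positive mRNA log2 fold changes, with a median of 0.55. Of these genes 4 rose and 0 fell, against 7.92% and 19.1% of all tested genes. When HF1 or HF2 was left out, fewer of them rose, as among all tested genes. Me1, the cytosolic malic enzyme, rose from 13.1 ± 2.62 to 90.1 ± 64.1 RPKM, with 135.4 RPKM in HB1 and 44.8 RPKM in HB2 (log2 fold change 2.50, adjusted p = 0.00656, limma). Idh2 (1.19), Pgd (0.92) and Taldo1 (0.80) were the other risen genes, the last 2 from the pentose phosphate pathway. Me1, Pgd and Taldo1 also belong to lipogenic NADPH supply.

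Of 25 tested genes among other textbook NRF2 targets of liver, 9 rose and 1 fell at the mRNA level, where 7.92% of all tested genes rose and 19.1% fell. The median log2 fold change was 0.34. Leaving out HF1 or HF2 lowered the number that rose, in this list and among all tested genes. Ugt1a6a, a glucuronosyltransferase, rose from 1.25 ± 0.808 to 10.2 ± 7.38 RPKM (SD, n = 2 libraries each, log2 fold change 2.19, adjusted p = 0.00928, limma). The glutathione S-transferases Gstm4 (1.94) and Gstm3 (1.61) and the epoxide hydrolase Ephx1 (1.37) followed by log2 fold change, and Gstp2 fell (-1.12). The fall of Gstp2 was not called without HF1, HF2 or HB1, or with a common median. The Gstm and Gstp genes have near-identical copies and Ugt1a6a shares its last exons with the other Ugt1a genes, so their reads can be split between family members. Many of these genes also answer to the nuclear receptors CAR and PXR. Of the 10 genes of heme breakdown and iron storage, only the heme transporter Slc48a1 rose (log2 fold change 0.99) and 0 fell, a count near the 7.92% of all tested genes that rose.

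**Figure D4:**
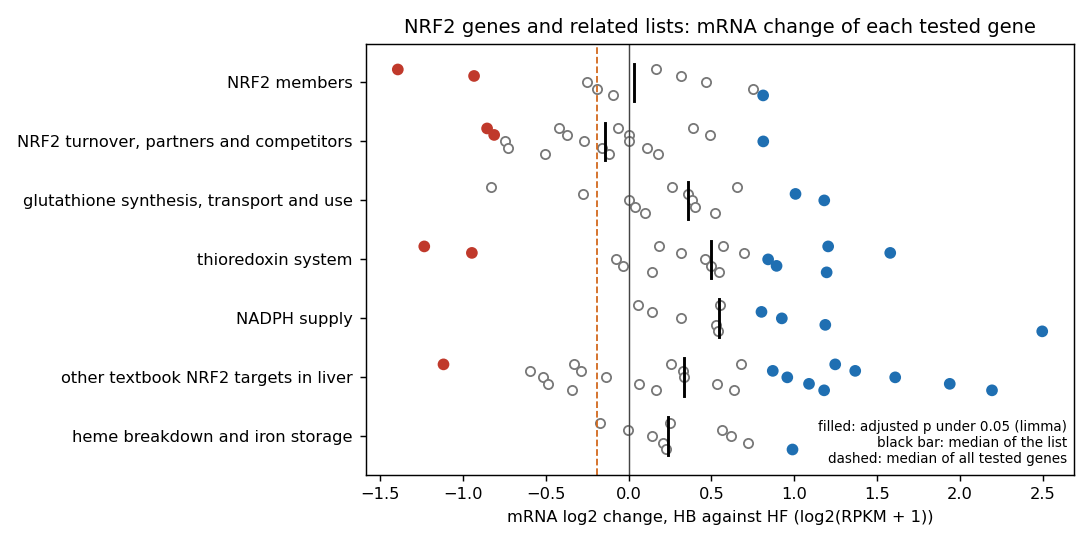
mRNA log2 fold change of each tested gene in the 7 lists, with filled points for an adjusted p under 0.05 (blue higher, red lower in HB), a black bar at the median of each list and a dashed line at the median of all tested genes. The medians run from -0.14 for turnover and partners to 0.55 for NADPH supply.

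None of these list genes passed the adjusted threshold in footprints or TE, where no tested gene did. Among the genes with the higher mRNA named above, Prdx1 footprints had a log2 fold change of 0.24, Gpx1 of -0.13, Me1 of -0.10, Sqstm1 of -0.22 and Ephx1 of 0.20, with standard errors from 0.29 to 0.60, and none of these genes was called in TE. Bach1 footprints were also lower in HB but not called, at 15.0 and 14.9 RPKM in HF and 5.31 and 6.02 RPKM in HB (log2 fold change -1.26, adjusted p = 0.493, limma). Both HB libraries lay below both HF libraries, as for 33.2% of all tested genes in footprints. The median footprint log2 fold change was -0.32 for the thioredoxin system, 0.18 for NADPH supply, -0.39 for the other targets, -0.41 for turnover and partners, -0.60 for glutathione and -0.011 for heme and iron, against -0.43 for all tested genes. In TE the median log2 change was -0.79 for the thioredoxin system, -0.74 for glutathione, -0.63 for the other targets, -0.45 for turnover and partners, -0.41 for NADPH supply and -0.29 for heme and iron, against -0.35 for all tested genes. At an unadjusted p under 0.05, TE was lower for 5 of 17 thioredoxin genes and 6 of 23 other targets, against 8.7% of all tested genes. The same held for 1 of 13 glutathione genes and 1 of 10 NADPH genes. For turnover and partners it was 0 of 18, and for heme and iron 0 of 10.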

How the data were processed

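Liver mRNA (RNA-seq of polyadenylated RNA) and ribosome-protected fragments (Ribo-seq) were measured in 2 libraries per group and assay. The authors mapped reads to the mouse genome build mm10 with FANSe2, and the deposited values are RPKM of each gene. edgeR, which the labels list among the authors' tools, was not used here. Of 24539 mRNA entries, 4 shared a symbol and were left out. Library totals and whole reads (99.99% of genes above 0 in each assay, to within 1e-06 reads plus 6e-07 of the count) were recovered by matching RPKM steps to GENCODE M21 transcript lengths. The recovered length was the same in both assays for 61.9% of genes. The recovered reads summed to 94.5% to 99.2% of the totals. Counting intervals cover counting error only.

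Two-sided moderated tests of limma 3.58.1 (R 4.3.3), with a trend of the variance on intensity, were run on log2(RPKM + 1) for genes averaging 1 RPKM or more, with the group as the only factor. TE used the log2 ratio of libraries of the same group and number. An exact permutation test of 2 against 2 libraries cannot go below p = 0.333. The steps were tested on simulated data. All members are described, and up to 4 called genes per direction and list are named, largest change first. Members and lists were chosen with earlier results of these data known. The alternatives were another pseudocount, other filters, other scalings, no trend, the replicate number as a block, each library left out, the study's thresholds, voom and an interaction model.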

Additional observations from a re-analysis of the deposited data

How the results depend on the processing

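Over the alternatives, 119 of 139 fits of a member's mRNA change kept direction and call, as did 120 of 129 for footprints and 130 of 139 for TE. Nfe2l2 mRNA stayed lower at -1.51 to -1.12 and lost its call only without a filter on mean RPKM (adjusted p = 0.0539), where no gene of the whole table passed. Without that filter 0 members rose and 0 fell in mRNA. The number that rose was 0 with a common sum of RPKM, with voom and with the study's thresholds (Nqo1 lost), and 2 with a common median (Srxn1 added). With a mean RPKM of at least 5 it was 1, Srxn1, since Nqo1 was not tested. The number that fell was 1 with a common median and with the study's thresholds (Gclc lost). When 1 mRNA library was omitted, the log2 change was -1.51 to -1.28 for Nfe2l2, -1.01 to -0.85 for Gclc and 0.66 to 0.97 for Nqo1. Which members were called differed between these fits, and the number called among all tested genes moved as well. In footprints the study's thresholds gave 1 lower member (Gclm). In TE, the log2 change of Txn1 was 2.05 without HB2. Without HB1 it was -2.09 for Keap1 and -2.56 for Nqo1. A fit with 1 library in a group assumes that it varies like the other group.

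None of the 3 called values changed sign. With a common median, mRNA turned to 0.18 for Keap1, 0.085 for Gclm and 0.021 for Txn1, the median of all tested genes moved from -0.19 to 0.084, and the genes called went from 846 higher and 2044 lower to 1519 and 1039. With a common sum of RPKM, footprints turned to -0.56 for Hmox1, -0.80 for Txnrd1 and -0.11 for Txn1, and TE to -0.071 for Nfe2l2 and -0.43 for Gclc. Leaving out 1 library at a time, the log2 change crossed 0 in mRNA for Gsr (-0.16 to 0.50) and Txn1 (-0.51 to 0.0098). It did so in footprints for Keap1 (-2.14 to 0.25), Hmox1 (-0.57 to 0.96), Txnrd1 (-0.37 to 0.47), Gsr (-1.45 to 0.13) and Txn1 (-0.023 to 1.54). In TE it did so for Keap1 (-2.09 to 0.39), Hmox1 (-0.995 to 0.44), Gsr (-1.94 to 0.29) and Txn1 (-0.032 to 2.05). The cause was not tested.

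Without HF1 or HF2 fewer genes rose in the thioredoxin system, in NADPH supply, among other targets and among all tested genes. The libraries share only a number: same-numbered HF and HB libraries had deviations around the group means with r = -0.10 in mRNA and -0.014 in footprints. With the replicate block 1 member rose and 2 fell in mRNA and none was called in footprints or TE. With the crossed pairing of numbers, chosen after seeing the data, 1097 genes rose and 2504 fell, and 2 members rose. Scaling to protein-coding reads and crossing the numbers between assays, also chosen after seeing the data, changed no member's call. Footprint depth limits what can be seen for the members at under 10 reads.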

Other observations

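Neutrophil markers moved with the groups at the mRNA level, with 3 of 3 tested genes fallen in HB, against 19.1% of all tested genes. S100a8, an alarmin of neutrophil granules, had 3.72 and 32.4 RPKM in HF and 1.47 and 1.69 RPKM in HB. The summed level of the 5 markers was 10.6 RPKM in HF1 and 57.6 RPKM in HF2 against 4.36 and 5.24 RPKM in HB, so the high value is that of 1 HF library, and without HF2 none of the 3 was called, while without HB1 or with a common median Csf3r alone was. Ly6g was at 0 in every mRNA library. Of 7 endothelial markers Stab2 and Egfl7 fell and 0 rose, against 19.1% and 7.92% of all tested genes, a call that neither kept without HF1, without HF2 or without HB1, and of 8 tested stellate cell and fibroblast markers none was called. T and B cell markers summed to 1.26 to 3.45 RPKM and bile duct markers to 2.05 to 4.22 RPKM in all mRNA libraries.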
